A study of Mus musculus with 12 samples.

Results

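The genes described here encode the machinery that copies chromosomal DNA. They were chosen by gene symbol, as the subunits of the origin recognition complex (*Orc1* to *Orc6*), the licensing factors *Cdc6* and *Cdt1* with geminin (*Gmnn*), the MCM proteins (*Mcm2* to *Mcm10*), the kinase pair *Cdc7* and *Dbf4*, *Cdc45* and the GINS subunits (*Gins1* to *Gins4*), the DNA polymerases alpha, delta and epsilon with primase, and the clamp *Pcna* with its loader (*Rfc1* to *Rfc5*). This rule gave 43 of the 24259 genes in the table. The study compared mRNA of germinal vesicle (GV) stage oocytes from WT mice and from mice without LSM14B, an oocyte RNA-binding protein, to learn how its loss alters which maternal mRNAs lie on polysomes. *Lsm14b*-KO mice were homozygous for tm1a(KOMP)Mbp, a reporter-tagged insertion allele carried by every cell of the animal, and the study kept its mice on a C57BL/6J background. Mice of both genotypes were 3 weeks old and received 5 IU of pregnant mare serum gonadotropin (PMSG) 46 h before oocytes were collected. About 1500 oocytes, held in cycloheximide to keep ribosomes on mRNA, went into a lysate that was spun through a sucrose gradient. Fractions 1 to 10 made the RNP pool, mRNA free of polysomes, and fractions 11 to 28 the polysome pool. Each genotype gave 3 RNP and 3 polysome libraries, 12 altogether, and since the labels do not say whether libraries of a group came from separate mice, p-values measure the spread between these libraries, which may be technical.

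In a dividing cell, the origin recognition complex marks start sites on DNA, and CDC6 and CDT1 load the ring of MCM2 to MCM7 there, a step that geminin blocks by holding CDT1. The kinase CDC7, active only with its partner DBF4, and cyclin-dependent kinases then turn that ring into a helicase with CDC45 and GINS, after which polymerase alpha with primase lays primers, the clamp PCNA is loaded by RFC, and polymerases epsilon and delta extend the strands. A GV oocyte is arrested in the prophase of meiosis, its last round of replication long past, and DNA is not copied between the meiotic divisions. The next round follows fertilization, when the genome of the embryo is still largely silent, so that the zygote relies on mRNA and protein stored by the oocyte.

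Levels are given as FPKM, fragments per kilobase of transcript scaled to all mapped fragments, which is a share of a library's RNA, so that in these bulk samples fewer cells and less RNA per cell cannot be told apart. *Lsm14b* itself was read at 34.6, 29.3 and 27.4 FPKM in RNP libraries of WT oocytes and 11.3, 15.3 and 13.2 in their polysome libraries. The KO libraries held 0.893, 0.0627 and 0 in the RNP pool and 0.260, 0 and 0.0876 in the polysome pool, so every library matched its genotype label. Depth, estimated from the steps between low values, ran from 4710000 to 7880000 fragments per library. KO polysome replicate 2 stood apart, with 34.7% of its summed FPKM in its 10 most abundant genes owing to 170809 FPKM at *Mir300*, which was listed at 0 in the other libraries. The 43 replication genes made up 0.261% of the summed FPKM there and 0.328% to 0.394% elsewhere. Their own summed FPKM was not low there, at 1825.4 against 1557.8 to 1821.5 elsewhere.

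All 12 oocyte markers were present, led by *Gdf9* at a mean of 10018.7 FPKM. Of 20 markers of granulosa or cumulus cells, which surround the oocyte and do divide, 9 reached 1 FPKM in at least 3 libraries and 3 (*Star*, *Lhcgr*, *Ptx3*) were listed at 0 in every library. *Foxl2*, which defines granulosa cells, was above 0 in 1 library, KO RNP replicate 2. The most abundant was *Cyp19a1*, at a mean of 28.9 FPKM. The summed level of this list was 37.5, 31.4 and 35.5 FPKM in WT RNP and 71.0, 63.8 and 43.3 in the KO RNP libraries. In the polysome pool it was 76.5, 28.3 and 44.6 in WT and 88.4, 99.4 and 112.6 in KO, where *Inha* stood at 51.4, 39.4 and 39.5 against 9.58, 0 and 8.11 in WT. *Fshr* (0, 0 and 0.700 in WT, 4.36, 3.14 and 6.74 in KO) had the same order there. So did *Inhba* (0.252, 0 and 0, then 3.72, 8.27 and 11.9) and *Gja1* (0 in WT, then 4.91, 10.9 and 6.98). *Cyp19a1* did not share that order on polysomes, at 62.0, 19.0 and 32.0 in WT and 14.6, 23.5 and 34.5 in KO. *Cyp11a1* and *Ptgs2*, below 1 FPKM throughout, had lower values in KO there. Of 8 stroma or theca markers 1 reached 1 FPKM in 3 libraries, and of 5 leukocyte markers 2 did, with *Ptprc* and *Adgre1* at 0 throughout. The proliferation markers *Mki67*, *Foxm1* and *Mybl2* summed to group means of 90.1 FPKM in the WT RNP pool, 80.2 in KO RNP, 75.4 in WT polysome and 84.3 in KO polysome. Members of this sum differed. On polysomes *Foxm1* stood at 26.8, 33.9 and 29.3 in WT and 44.1, 45.2 and 45.1 in KO. *Mybl2* had lower means in KO, 18.6 against 25.2 in the RNP pool and 17.0 against 24.2 on polysomes. What part somatic RNA had in any difference between the genotypes below was not tested.

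Most of the replication mRNAs were present in GV oocytes. Of the 43, 39 reached 1 FPKM in at least 3 of the 12 libraries, and the median of the 43 means was 17.8 FPKM, against 8.31 for all genes that met the same minimum. The most abundant were *Pole4*, a small histone-fold subunit of polymerase epsilon, at a mean of 335 FPKM over the 12 libraries, *Orc5* at 240.4, *Pold3*, a regulatory subunit of polymerase delta, at 190.6 and *Gins2* at 109. Below the minimum lay *Cdc45*, the helicase cofactor, at 0.367, *Pole2* at 0.205, *Pold1*, the catalytic subunit of polymerase delta, at 0.199 and the clamp loader subunit *Rfc4* at 0.0251. No library read any of those 4 genes at 1 FPKM or more.

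Subunits that act in the same complex were far from equal in mRNA level. Within the origin recognition complex the means ran from 240.4 FPKM for *Orc5* to 3.44 for *Orc3*, a ratio of 69.9. In polymerase epsilon they ran from 335 for *Pole4* to 0.205 for *Pole2*, in polymerase delta from 190.6 for *Pold3* to 0.199 for *Pold1*, and in the clamp loader from 33.6 for *Rfc5* to 0.0251 for *Rfc4*, the low ends lying so near 0 that no ratio is given. The catalytic subunits of the polymerases stood low in each case, with *Pola1* at 2.81, *Pole* at 1.27 and *Pold1* at 0.199. By contrast, the 6 genes of the replicative helicase lay within 2.85-fold of each other, from *Mcm2* at 36.6 to *Mcm3* at 12.9. *Mcm8* and *Mcm9*, which serve meiotic recombination and repair rather than origin licensing, were lower, at 1.54 and 6.23. Among the regulators, *Cdt1* stood at 67.3, *Dbf4* at 42.6, *Gmnn* at 22.0, *Cdc7* at 17.1 and *Cdc6* at 9.22.

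**Figure D1:**
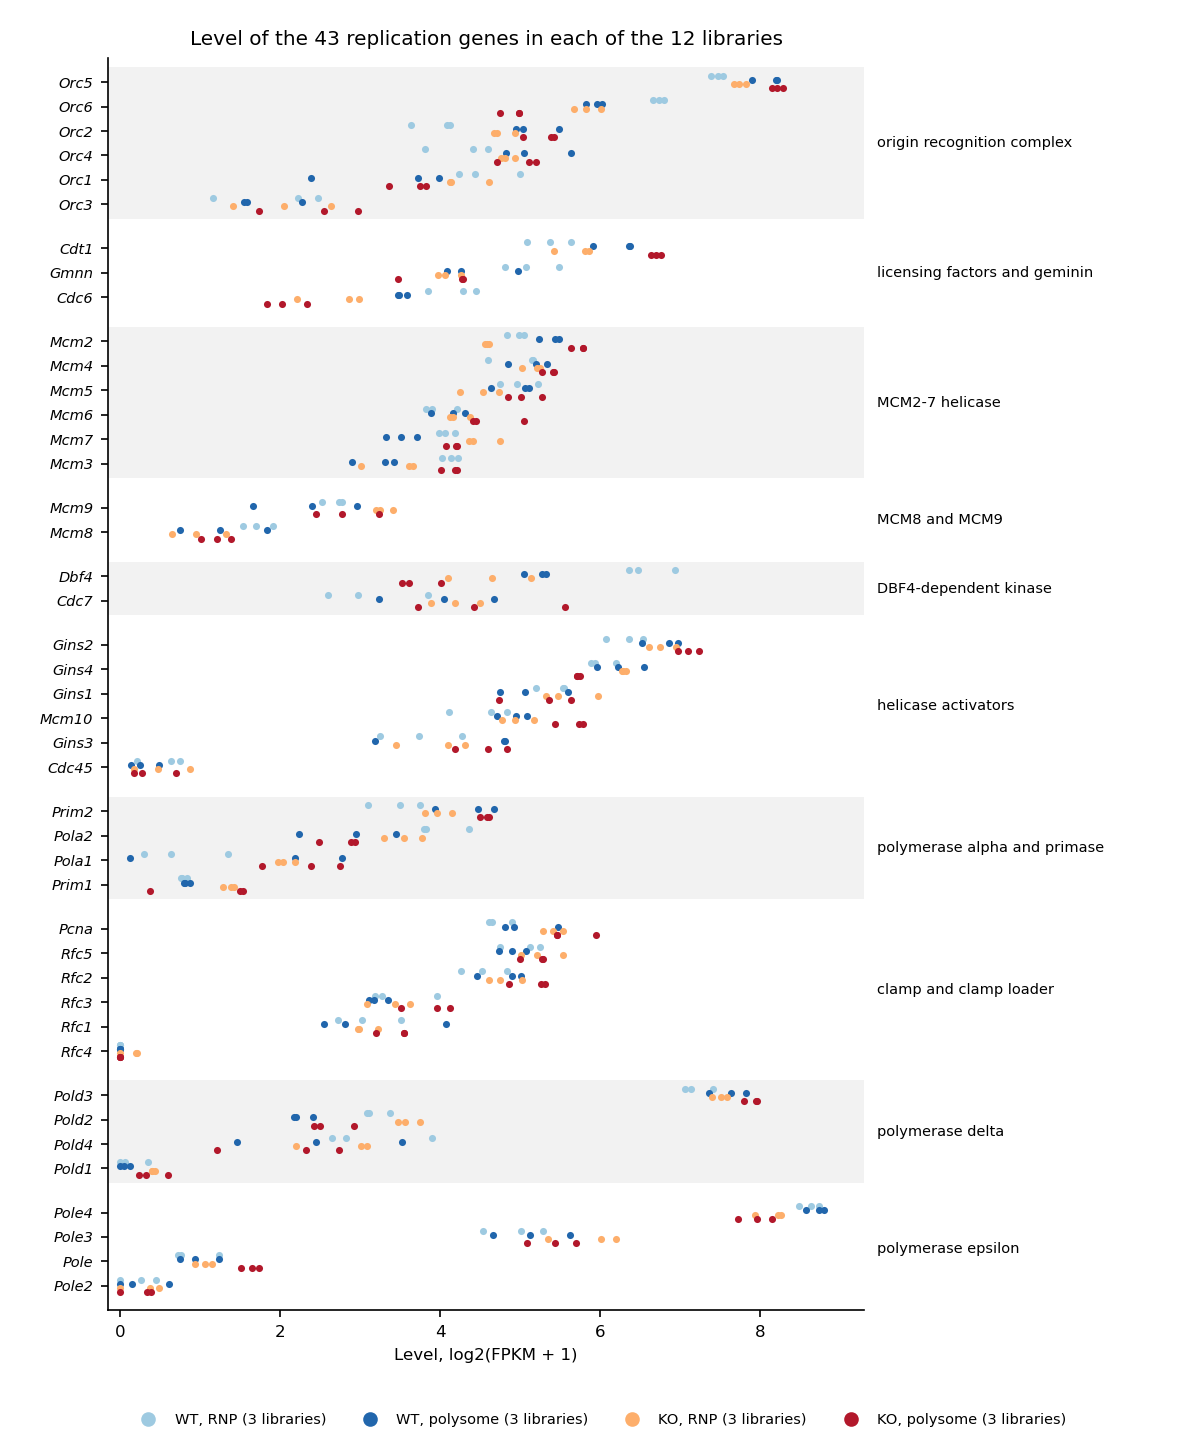
Level of each of the 43 replication genes in the 12 libraries, grouped by role, with log2(FPKM + 1) on the horizontal axis, a dot per library and colours for genotype and pool. *Pole4* and *Orc5* lie at the right, with means of 335 and 240.4 FPKM, and *Cdc45*, *Pole2*, *Pold1* and *Rfc4* stay below 1 FPKM in all libraries.

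Some of these values rest on exons that overlap another gene, and the sources used here do not state that fragments were assigned by strand, so that reads of the partners cannot be told apart. In GENCODE M21, 70.7% of the exon bases of *Gins2* overlap *Gse1* on the opposite strand, 31.3% of those of *Pold4* overlap another transcript, and 24.0% of those of *Orc2* overlap *Nif3l1* on the opposite strand. The locus of a gene in the deposited table can also reach past the 3′ end of the transcript used here, by 89769 bases for *Gins2*, 88717 for *Orc4*, 20183 for *Orc3* and 10316 for *Pold2*, and what their FPKM hold from beyond that end was not tested. The shares of overlap were 19.1% for *Rfc2* with *Lat2* and 17.8% for *Rfc5* with *Wsb2*. For *Cdc6*, *Dbf4*, *Gmnn*, *Pole4*, *Cdt1*, *Mcm2* and *Pcna* no overlapping gene was found, and for *Orc6* the share was 0.932%.

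Stored oocyte mRNAs are often controlled through the cytoplasmic polyadenylation element (CPE), a short motif in the 3′ UTR at which CPEB proteins regulate poly(A) tail length and translation. The letters TTTTAT and TTTTAAT were searched on the sense strand of a representative GENCODE M21 transcript (GRCm38) of each gene. At least 1 of them was found in the 3′ UTR of 28 of the 43 replication genes (65.1%), against 60.3% of the 10087 expressed genes that had such an annotation. A match starting within the last 100 bases of the transcript was found in 19 of the 43 (44.2%), against 19.4% of the expressed genes. Of the 39 replication genes that were themselves expressed, 26 (66.7%) held a match anywhere and 17 (43.6%) held one in the last 100 bases. The 3′ UTRs of the replication genes were shorter, with a median of 463 bases against 973. All shares for the last 100 bases count from the annotated transcript end. In the deposited table the locus ends before the near-end match of *Mcm10*, *Pole*, *Pole3*, *Rfc2* and *Rfc3*. It ends over 100 bases beyond the near-end matches of *Orc4* and *Orc6*. The window of 100 bases was chosen after the data had been seen, and the shares are descriptions without a test. The letters CCTCTC were found in 10 of the 43 (23.3%), against 36.8%.

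The windows below hold matches of the 5 genes that passed as lower in the KO RNP pool, followed by those of *Cdt1* and *Mcm2*, which did not pass between genotypes and also hold a match near the transcript end. Each is 30 bases of 3′ UTR in GRCm38 read 5′ to 3′ in the direction of the transcript, with the match in capitals. *Dbf4* has 3 matches, followed by 157, 102 and 1 bases of transcript, of which the last 2 are shown, and the one at the end lies downstream of a polyadenylation signal.
*Dbf4*, chr5:8397099-8397128 on the minus strand: tcgccaacttTTTTATggagccatctgtaa
*Dbf4*, chr5:8397011-8397040 on the minus strand: tacaataaaaacttaatgacttaTTTTATa
*Orc6*, chr8:85307980-85308009 on the plus strand: atctcagacaTTTTATttggttttgtggtt
*Orc6*, chr8:85308007-85308036 on the plus strand: gttttttaaaTTTTATttcactaaatgtta
*Gmnn*, chr13:24751921-24751950 on the minus strand: tagtgtgtatTTTTAATccgttttatgtaa
*Gmnn*, chr13:24751911-24751940 on the minus strand: ttttaatccgTTTTATgtaaatagcatttt
*Pole4*, chr6:82646775-82646804 on the minus strand: tgagttcagtTTTTATttgagttcagtatt
*Cdc6*, chr11:98921415-98921444 on the plus strand: gtgtggtgacTTTTATgcctgtgatcccag
*Cdt1*, chr8:122573074-122573103 on the plus strand: tagttttggcTTTTAATaaagtcatgtaag
*Mcm2*, chr6:88883489-88883518 on the minus strand: gtagtttattTTTTAATagatttgaataaa

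Matches in *Orc6* ended 76 and 49 bases before the transcript end, those in *Gmnn* 89 and 80, and the 4 in *Pole4* 1015, 920, 818 and 88, the last of which is shown. The match in *Cdc6* lay 463 bases before it. The locus in the deposited table reaches beyond the transcript used here by 2049 bases for *Cdc6*, 208 for *Orc6* and 44 for *Dbf4*, and counted from that end neither match of *Orc6* would lie in the last 100 bases. In *Cdt1* the match was 38 bases from the end and overlaps a polyadenylation signal (AATAAA or ATTAAA), and in *Mcm2* it was 28. Of the genes higher in the KO RNP pool, *Pola1*, tested only because of its KO values, had a match 55 bases from the end. *Pole3* had a match 37 bases from the end, outside the locus that the deposited table gives for *Pole3*. *Orc2* had matches only at 1128 and 746 bases, and *Pcna* had none. A match is a description and not a site shown to act.

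**Figure D2:**
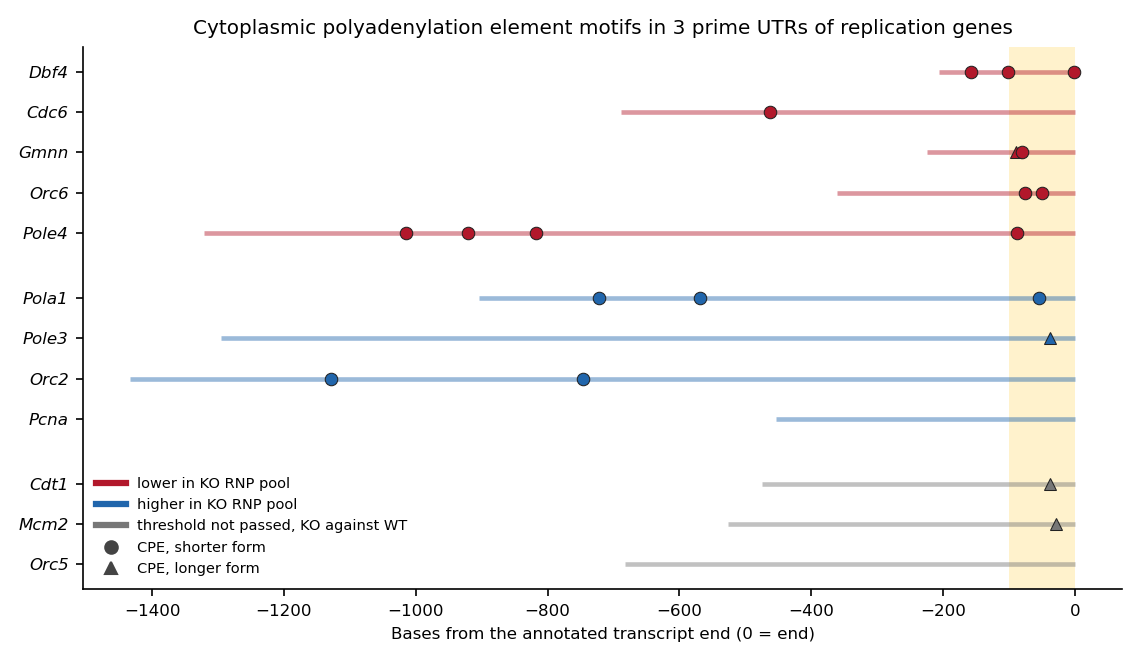
Distance of CPE matches from the annotated transcript end in 12 replication genes, where lines span the 3′ UTR, the horizontal axis counts bases from the transcript end, circles mark TTTTAT and triangles TTTTAAT, and the shaded band is the last 100 bases. The 5 genes lower in the KO RNP pool (red) all hold a match. Of those that were higher (blue), *Pole3* and *Orc2* hold a match and *Pcna* does not. *Pola1*, also blue and with a match, was tested only because of its KO values.

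In *Lsm14b*-KO oocytes a small set of replication genes had lower mRNA, and a few had higher mRNA in the RNP pool. Most of the machinery did not pass the test. In the polysome pool 38 of the 43 genes could be tested, and 4 passed the threshold (adjusted p under 0.05, limma on log2(FPKM + 1) over 9536 genes), all of them lower in KO: *Dbf4*, *Cdc6*, *Orc6* and *Pole4*. That is 10.5% of those tested, beside 10.4% of all genes tested, of which 5.64% were higher and 4.73% lower. Of the 38 estimates 28 lay above 0 (73.7%, beside 55.7% of all genes tested), and none of the 28 passed. The median log2 change of the 38 was 0.28, against 0.10 for all genes tested. No call among the 4 rests on a gene that met the minimum through its higher group alone, and without genes of that kind 4 of 36 passed (11.1%), beside 10.9% of all genes. With 1 polysome library left out 3 of the replication genes passed, beside 4.22% of all genes without KO polysome replicate 3, the lowest share, and 4.38% without replicate 2. The balance over all genes turned whichever KO library was left out, from 538 higher and 451 lower in the 6 libraries to 136 and 247 without replicate 3, 149 and 249 without replicate 2 and 247 and 275 without KO polysome replicate 1.

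In the RNP pool 39 could be tested and 9 passed. The 5 lower in KO were *Dbf4*, *Cdc6*, *Gmnn*, *Orc6* and *Pole4*, and the 4 higher were *Pola1*, *Pole3*, *Orc2* and *Pcna*. The share was 23.1% beside 20.7% of the 9931 genes tested, of which 10.5% were higher and 10.2% lower. With the deposited scaling the share in both pools was thus near that of the whole table. *Pola1* met the minimum for testing through KO alone, so its difference is not independent of the filter. Without genes of that kind 8 of 35 passed (22.9%), 3 higher and 5 lower, beside 22.6% of all genes. An exact permutation test of 3 against 3 libraries cannot give a p under 0.1, so calls on single genes rest on limma. With each library rescaled to the same median, 12 passed in the RNP pool (30.8%), 7 higher, *Pola1* among them, and 5 lower, beside 21.9% of all genes. Without KO RNP replicate 1, and also without KO RNP replicate 3, 5 passed, all of them lower, beside 13.1% of all genes (548 higher and 707 lower) and 13.6% (555 and 743). All 5 lower genes hold a CPE match in the 3′ UTR, as shown above. Of the higher ones *Pole3* and *Orc2* hold a match and *Pcna* does not. *Pola1*, tested through KO alone, also holds a match. The median log2 change in the RNP pool was 0.20 for replication genes with a match and 0.24 for those without. The summed granulosa and cumulus markers had means of 34.8 FPKM in WT RNP and 59.4 in KO RNP, and 49.8 in WT polysome and 100.1 in KO polysome, and their part in these counts was not tested.

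**Figure D3:**
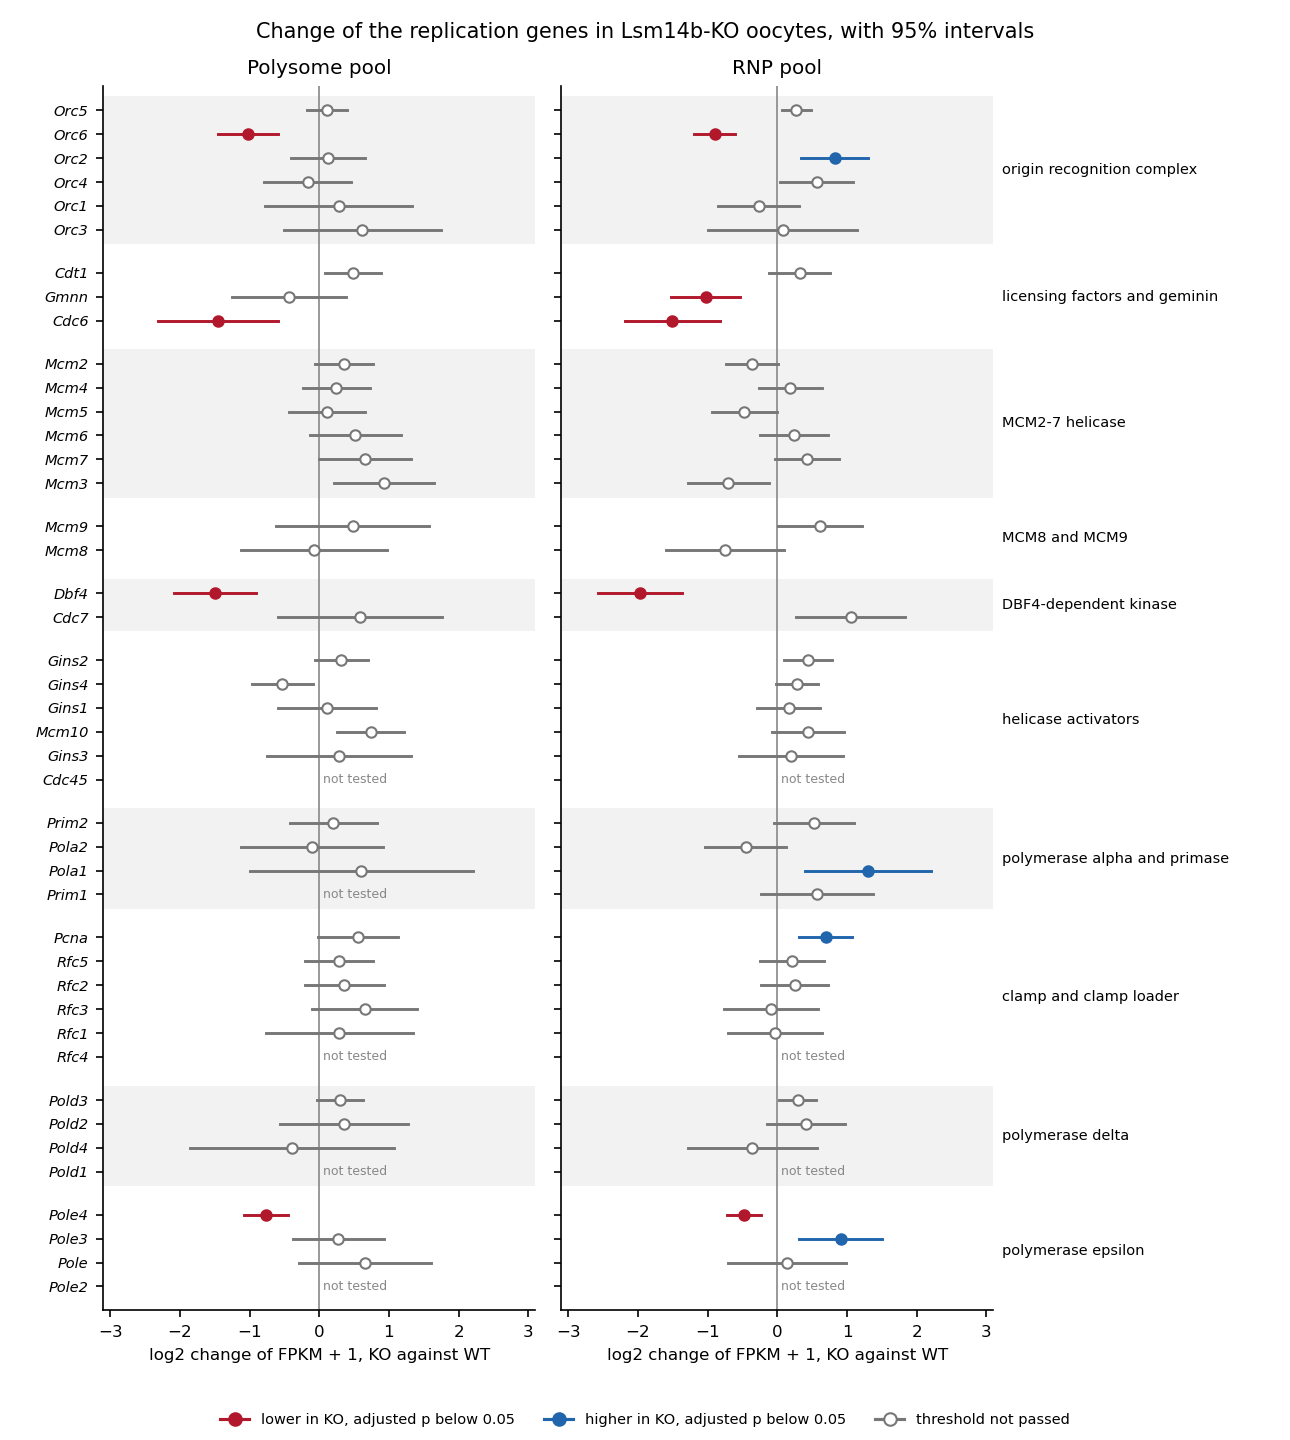
Change of each replication gene in KO against WT oocytes, in the polysome pool (left) and the RNP pool (right), as the log2 change of FPKM + 1 with 95% intervals over 3 against 3 libraries, filled points having passed the threshold in limma. *Dbf4*, *Cdc6*, *Orc6* and *Pole4* lie to the left of 0 in both pools.

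Of the origin recognition complex, *Orc6*, the smallest and least conserved subunit, was lower in both pools. It was read at 111, 106 and 99.9 FPKM in WT RNP and 50.0, 55.6 and 63.4 in KO RNP. In the polysome pool the values were 64.0, 55.9 and 61.1 in WT and 25.9, 30.8 and 30.7 in KO. In neither pool did the genotypes overlap, and the KO polysome values lay below all other libraries. The log2 change was -0.90 (SE 0.13, limma, adjusted p = 0.00194) in the RNP pool and -1.03 (SE 0.19, adjusted p = 0.0129) in the polysome pool, and it passed in limma under each of the 15 other settings in both pools.

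*Orc2*, a core subunit, was higher in KO in the RNP pool, going from 15.9, 16.5 and 11.5 FPKM in WT to 25.3, 24.4 and 29.8 in KO, with no overlap. This is a log2 change of 0.83 (SE 0.21, limma, adjusted p = 0.0241). In the polysome pool WT held 31.7, 29.9 and 44.0 and KO 31.8, 42.0 and 40.8, overlapping ranges with a log2 change of 0.12 (SE 0.23, adjusted p = 0.787) in limma. Its antisense neighbour *Nif3l1* stood at 11.4, 0.781 and 6.56 in WT RNP libraries and 23.6, 21.5 and 21.1 in the KO RNP libraries. On polysomes *Nif3l1* was also higher in KO, at 6.69, 8.88 and 7.43 in WT and 15.4, 20.8 and 22.4 in KO. The part of reads from *Nif3l1* in the value of *Orc2* was not tested. The call on *Orc2* ended when KO RNP replicate 1, 2 or 3 was left out, with limma adjusted p of 0.0735, 0.0638 and 0.104.

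*Orc1*, the largest subunit and an ATPase, was at 20.7, 17.8 and 30.9 FPKM in WT RNP and 16.4, 16.6 and 23.5 in KO RNP, overlapping ranges with a log2 change of -0.27 (95% interval -0.84 to 0.31). Its polysome values were 12.3, 4.22 and 14.8 in WT and 9.28, 13.1 and 12.4 in KO, a log2 change of 0.28 with an interval of -0.78 to 1.34, and the sign turned to -0.21 without WT polysome replicate 2, the lowest library. *Orc3*, *Orc4* and *Orc5* did not pass in either pool, with log2 changes from -0.16 to 0.62 in the polysome pool and from 0.08 to 0.57 in the RNP pool.

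The licensing factor *Cdc6*, the ATPase that recruits the MCM ring to the origin recognition complex, was read at 13.5, 18.5 and 20.8 FPKM in WT RNP and 6.92, 6.27 and 3.63 in KO RNP. On polysomes it stood at 11.1, 10.2 and 10.1 in WT and 2.57, 3.07 and 4.05 in KO, and in neither pool did the genotypes overlap. The log2 changes were -1.51 (SE 0.30, limma, adjusted p = 0.00837) in the RNP pool and -1.45 (SE 0.38, adjusted p = 0.0457) in the polysome pool. The polysome call ended when any of the 6 polysome libraries was left out, with limma adjusted p from 0.0780 to 0.141, and without a filter on low values (0.0726).

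*Cdt1*, the partner of CDC6 in loading, did not pass in either pool. Its RNP values were 49.0, 33.1 and 40.6 FPKM in WT and 41.8, 57.1 and 55.0 in KO, which overlap, with a log2 change of 0.32 (SE 0.19, adjusted p = 0.273) in limma. Its polysome values were 81.6, 59.0 and 81.2 in WT and 98.5, 108 and 103 in KO, each KO library above each WT library, yet the change of 0.49 (SE 0.18, adjusted p = 0.119) is short of the threshold in limma.

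Geminin, the inhibitor of CDT1, was lower in the RNP pool, at 32.7, 44.0 and 27.1 FPKM in WT and 18.2, 14.7 and 15.7 in KO without overlap, a log2 change of -1.03 (SE 0.22, limma, adjusted p = 0.0110). On polysomes the ranges overlapped, with 16.0, 18.1 and 30.6 in WT and 10.1, 18.3 and 18.5 in KO and a log2 change of -0.43 (SE 0.36, adjusted p = 0.495) in limma. The difference between the pools was itself tested and did not pass, with a change of the polysome-to-RNP ratio of 0.60 (SE 0.43, adjusted p = 0.655) in limma.

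Of the kinase that fires licensed origins, *Dbf4*, the regulatory subunit without which CDC7 is inactive, had the largest change on the log2(FPKM + 1) scale among the 38 replication genes tested on polysomes and the 39 tested in the RNP pool. It was read at 81.5, 122 and 88.0 FPKM in WT RNP and 16.1, 34.1 and 24.0 in KO RNP, and at 39.0, 32.0 and 37.6 in WT polysome and 15.1, 10.5 and 11.2 in KO polysome. The RNP mean was 97.1 ± 21.7 in WT and 24.7 ± 9.02 in KO (SD, n = 3), a ratio of KO to WT of 0.255, and on polysomes the ratio was 0.339. Genotypes did not overlap in either pool. The log2 change was -1.97 (SE 0.26, limma, adjusted p = 0.00122) in the RNP pool and -1.50 (SE 0.26, adjusted p = 0.0106) in the polysome pool. It passed in limma under each of the 15 other settings in both. By the ratio of means *Dbf4* did not rank first. *Cdc6* had 0.309 on polysomes and *Pola1*, tested through KO alone, had 4.10 in the RNP pool.

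The catalytic subunit *Cdc7* did not pass in either pool and its estimates lay above 0. Its RNP libraries held 5.07, 13.4 and 6.86 FPKM in WT and 17.3, 21.7 and 13.9 in KO, the lowest KO library lying just above the highest WT library, with a log2 change of 1.06 (SE 0.35, adjusted p = 0.0599) in limma. On polysomes it varied widely, from 8.43 to 24.5 in WT and from 12.3 to 46.2 in KO.

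None of the 6 genes of the MCM2 to MCM7 ring passed in either KO against WT comparison. In the polysome pool all 6 had estimates above 0, as did 55.7% of all genes tested, with a median log2 change of 0.44. In the RNP pool 3 lay above and 3 below, with a median of -0.09. *Mcm2* stood at 32.0, 27.7 and 30.6 FPKM in WT RNP and 22.7, 23.1 and 23.4 in KO RNP, and at 36.7, 43.7 and 42.3 in WT polysome and 54.2, 54.2 and 49.0 in KO polysome. The KO libraries of *Mcm2* were thus all below WT in the RNP pool and all above WT on polysomes, with log2 changes of -0.37 and 0.35 and limma adjusted p of 0.154 and 0.258.

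*Mcm3*, chosen here after its values were seen, showed the same arrangement with larger steps. Its RNP values were 15.2, 16.6 and 17.7 in WT and 11.2, 7.05 and 11.7 in KO, and its polysome values 8.98, 9.71 and 6.43 in WT and 17.2, 15.2 and 17.5 in KO. The log2 changes were -0.70 and 0.93, with limma adjusted p of 0.0835 and 0.0995. *Mcm8* and *Mcm9* did not pass either, with log2 changes of -0.07 and 0.48 on polysomes and -0.75 and 0.61 in the RNP pool.

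Of the factors that activate the helicase, 5 of 6 were tested and none passed between genotypes. *Mcm10*, which helps the helicase start unwinding, had a log2 change on polysomes of 0.74 (SE 0.21, adjusted p = 0.0595) in limma. *Gins4* stood at 74.0, 61.6 and 92.9 FPKM in WT polysome and 51.3, 51.4 and 52.6 in KO polysome, without overlap, and its log2 change was -0.53 (SE 0.19, adjusted p = 0.123) in limma. In the RNP pool its KO libraries, at 78.9, 76.3 and 77.2, lay above WT, at 72.5, 58.1 and 60.1. *Gins1*, *Gins2* and *Gins3* had log2 changes from 0.11 to 0.32 on polysomes and from 0.16 to 0.44 in the RNP pool, and *Cdc45* was too low to test.

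Among the enzymes that prime DNA, *Pola1*, the catalytic subunit of polymerase alpha, stood in the RNP pool at 1.55, 0.226 and 0.556 FPKM in WT and 2.92, 3.56 and 3.09 in KO, without overlap. With 1 WT library at 1 FPKM or more, the gene was tested only because of its KO values, so its call is not a result. On polysomes *Pola1* spread from 0.0887 to 5.86 within WT alone, and the log2 change was 0.60 (SE 0.71, adjusted p = 0.639) in limma. *Pola2*, *Prim1* and *Prim2* did not pass in either pool, *Prim1* being tested in the RNP pool only.

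The sliding clamp *Pcna* was read at 24.0, 23.5 and 28.8 FPKM in WT RNP and 45.6, 38.0 and 41.7 in KO RNP, without overlap. This was a log2 change of 0.70 (SE 0.17, limma, adjusted p = 0.0179), and the call ended without KO RNP replicate 1 (adjusted p = 0.0866 in limma) or replicate 3 (0.0664). On polysomes it stood at 29.3, 43.5 and 27.0 in WT and 60.7, 43.2 and 43.1 in KO, overlapping ranges with a log2 change of 0.56 (SE 0.25, adjusted p = 0.204) in limma. The clamp loader subunits *Rfc1*, *Rfc2*, *Rfc3* and *Rfc5* did not pass, with log2 changes from 0.29 to 0.65 on polysomes and from -0.09 to 0.25 in the RNP pool. *Rfc4* was too low to test.

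Of polymerase epsilon, *Pole4* was read at 396, 425 and 359 FPKM in WT RNP and 298, 244 and 305 in KO RNP, and at 443, 382 and 427 in WT polysome and 211, 248 and 282 in KO polysome. The genotypes did not overlap in either pool. The log2 change was -0.76 (SE 0.14, limma, adjusted p = 0.0122) on polysomes and -0.48 (SE 0.11, adjusted p = 0.0144) in the RNP pool, and both ended only without the intensity trend in limma, at adjusted p of 0.108 and 0.123.

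*Pole3*, the histone-fold partner of *Pole4*, was higher in KO in the RNP pool, going from 38.2, 31.3 and 22.2 FPKM in WT to 63.8, 39.7 and 72.5 in KO, a log2 change of 0.91 (SE 0.26, limma, adjusted p = 0.0387). The lowest KO library lay just above the highest WT library, and the call ended without WT RNP replicate 2 or 3 or KO RNP replicate 1 or 3, where limma adjusted p were 0.0618, 0.0905, 0.125 and 0.134. It also ended without a filter on low values (0.106 in limma), without the intensity trend (0.0986) and in a joint fit of the 12 libraries (0.0562). On polysomes the ranges overlapped, at 24.4, 33.8 and 48.3 in WT and 50.9, 42.5 and 33.1 in KO. The catalytic *Pole* stood at 1.36, 0.678 and 0.912 in WT polysome and 2.13, 1.84 and 2.32 in KO polysome, without overlap. It met the minimum there through KO alone, so this separation is not independent of the filter. Its log2 change of 0.65 (SE 0.42, adjusted p = 0.361) in limma did not pass, and in the RNP pool the change was 0.14. Of polymerase delta, *Pold2*, *Pold3* and *Pold4* did not pass, with log2 changes from -0.39 to 0.35 on polysomes and from -0.36 to 0.41 in the RNP pool. *Pole2* and *Pold1* were too low to test.

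**Figure D4:**
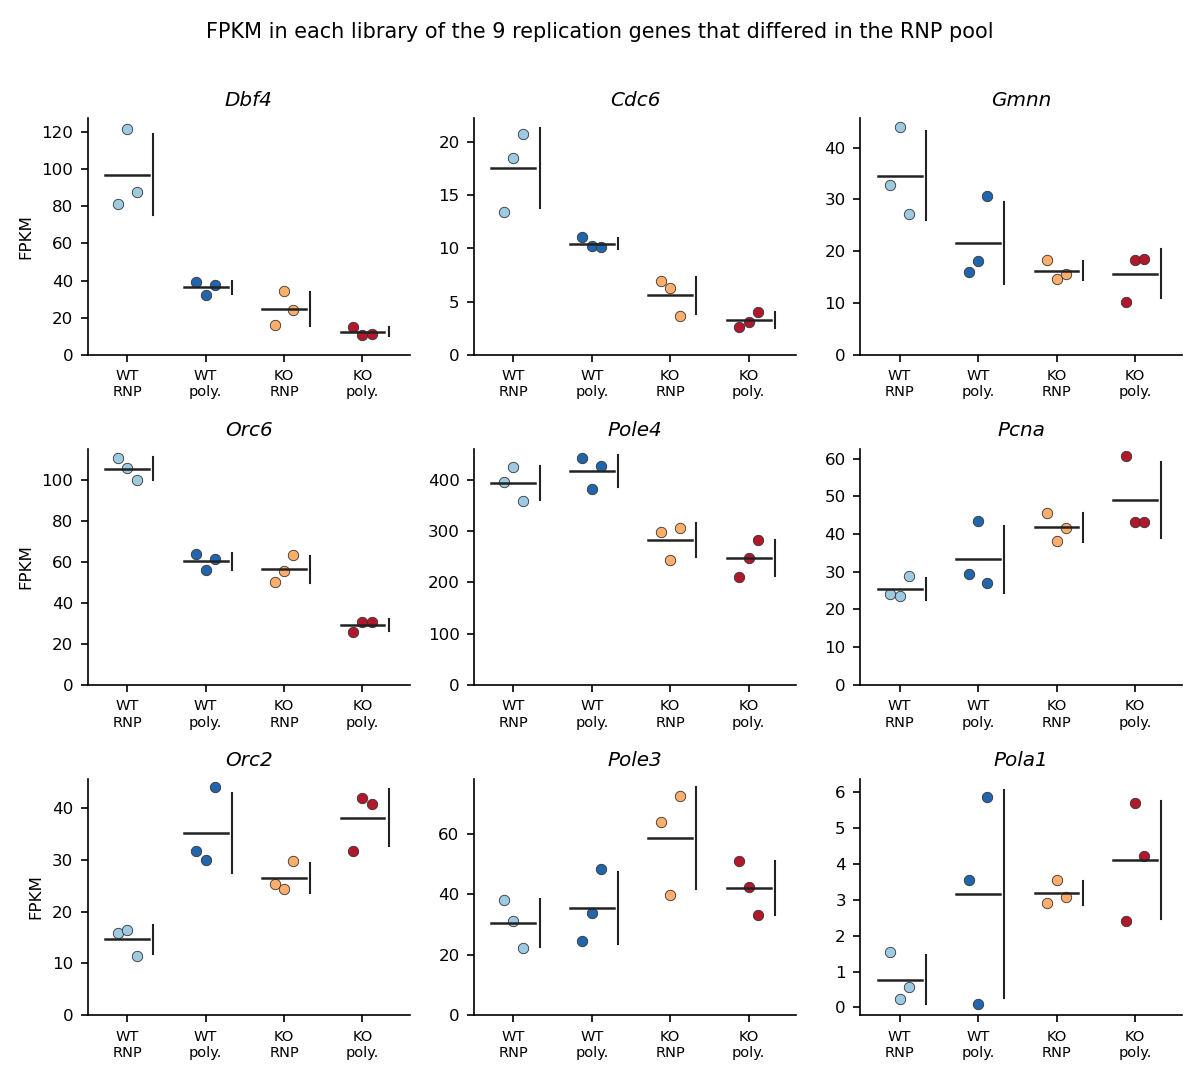
FPKM of the 9 replication genes past the threshold in the RNP pool, *Pola1* only through the filter, with FPKM from 0 on the vertical axis, a dot per library, horizontal bars for group means and vertical bars for SD (n = 3). *Dbf4*, *Cdc6*, *Orc6* and *Pole4* are lower in KO in both pools, whereas *Gmnn*, *Pcna*, *Orc2*, *Pole3* and *Pola1* separate by genotype in the RNP pool and overlap on polysomes.

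The pools of the same genotype were compared by FPKM, so that a higher value on polysomes is a larger share of that library and not a number of molecules. In WT oocytes 37 of the 43 genes were tested and 5 passed, beside 14.7% of the 9574 genes tested (7.97% higher on polysomes and 6.72% lower). *Orc2*, *Cdt1* and *Orc5* were higher on polysomes, and *Dbf4* and *Orc6* were higher in the RNP pool. By the values given above, *Orc2* had a log2 difference of 1.21 (SE 0.28, limma, adjusted p = 0.0218), *Cdt1* of 0.84 (SE 0.22, adjusted p = 0.0379), *Dbf4* of -1.38 (SE 0.21, adjusted p = 0.00343) and *Orc6* of -0.80 (SE 0.15, adjusted p = 0.0107). *Orc5* was read at 177, 185 and 166 FPKM in the RNP libraries and 296, 294 and 237 on polysomes, a log2 difference of 0.64 (SE 0.13, limma, adjusted p = 0.0147). Without WT RNP replicate 1, and also without WT RNP replicate 3, 2 genes passed, beside 8.62% and 8.53% of all genes, and 3 did without WT polysome replicate 3, beside 12.9%. The call on *Dbf4* held whichever of the 6 libraries was left out. That on *Cdt1* ended without WT RNP replicate 2 (adjusted p = 0.123 in limma) and 4 other libraries, that on *Orc2* without WT RNP replicate 3 (0.0740) and 2 others, that on *Orc5* without WT RNP replicate 3 (0.0565) and that on *Orc6* without WT RNP replicate 1 (0.0508). Without the intensity trend in limma *Cdt1* (0.107), *Orc5* (0.127) and *Orc6* (0.0718) did not pass, nor did *Cdt1* without a filter (0.0693).

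In KO oocytes 39 were tested and 10 passed, beside 29.2% of the 9851 genes tested (15.5% higher on polysomes and 13.8% lower). The 6 higher on polysomes were *Mcm2*, *Cdt1*, *Mcm10*, *Prim2*, *Orc5* and *Pold3*, and the 4 lower were *Pold2*, *Orc6*, *Dbf4* and *Gins4*. *Mcm2* had the largest difference, 1.15 (SE 0.15, limma, adjusted p = 4.43e-04), followed by *Cdt1* at 1.00 (SE 0.15, adjusted p = 0.00102). *Pold2*, which joins the subunits of polymerase delta, was read at 10.2, 12.5 and 10.9 FPKM in the KO RNP libraries and 6.62, 4.35 and 4.64 on KO polysomes, and at 7.61, 9.34 and 7.49 and 3.52, 3.59 and 4.32 in the same pools of WT. Its log2 difference was -0.98 (SE 0.27, limma, adjusted p = 0.0225) in KO and -0.92 (SE 0.38, adjusted p = 0.149) in WT. *Orc6* and *Dbf4* were lower on polysomes in KO too, with limma estimates of -0.93 (SE 0.16, adjusted p = 0.00232) and -0.91 (SE 0.29, adjusted p = 0.0406).

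Correlations between replicate libraries were 0.960 to 0.962 in KO RNP and 0.933 to 0.936 in KO polysome, and 0.907 to 0.932 and 0.883 to 0.885 in the same pools of WT, across 10949 genes, and their part in the number of calls was not tested. Without KO RNP replicate 1, and also without KO RNP replicate 3, 6 of the replication genes passed, beside 21.4% of all genes in each case. The call on *Dbf4* ended without replicate 2 or 3 of either pool (limma adjusted p from 0.0858 to 0.154), that on *Pold2* without KO RNP replicate 1, 2 or 3 or KO polysome replicate 2 (up to 0.0921), that on *Mcm10* without KO RNP replicate 1 or 3 (0.0525 and 0.0628), that on *Pold3* without KO RNP replicate 1 (0.0678) and that on *Prim2* whichever of the 6 libraries was left out (0.0633 to 0.149). *Prim2* did not pass either with libraries rescaled to the same median (0.0509 in limma), with quantile normalization (0.0522) or in a joint fit of the 12 libraries (0.129), and 5 of 15 other settings kept its call. Without the intensity trend *Dbf4* (0.0723 in limma), *Orc5* (0.0696) and *Pold3* (0.111) did not pass, nor did *Dbf4* without a filter (0.0927).

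**Figure D5:**
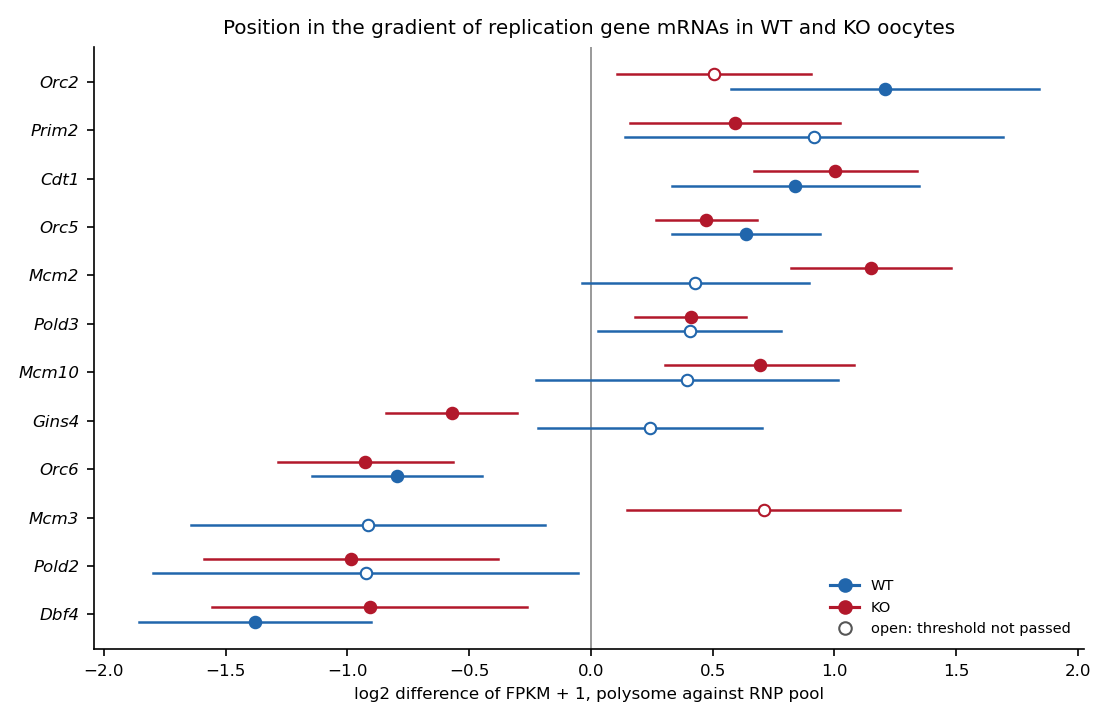
Difference between the polysome and RNP pools in WT and KO oocytes for the 11 replication genes that passed in either genotype, and for *Mcm3*, as the log2 difference of FPKM + 1 (positive values are higher on polysomes) with 95% intervals, filled points having passed the threshold in limma. *Mcm3* lies at -0.92 in WT and 0.71 in KO.

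The change of the polysome-to-RNP ratio of FPKM in KO was tested in a model of the 12 libraries with an interaction term. None of the 39 replication genes tested passed in limma, beside 26 of the 10949 genes (0.237%, with 0.0822% higher and 0.155% lower). That count of all genes was itself unsteady, at 0 without KO RNP replicate 2, 1 without KO RNP replicate 3, 2 without WT RNP replicate 2 and 46 without WT polysome replicate 3. An unadjusted p under 0.05 in limma was found for 4 of the 39 (10.3%), beside 1220 of all genes (11.1%), so that the share is that of the whole table. Those 4 were *Mcm3*, with a change of the log2 ratio of 1.63 (SE 0.37, adjusted p = 0.114), *Gins4* with -0.81 (SE 0.23, adjusted p = 0.184), *Mcm2* with 0.72 (SE 0.22, adjusted p = 0.234) and *Orc2* with -0.70 (SE 0.31, adjusted p = 0.429), in limma throughout. The interval for *Mcm3* ran from 0.82 to 2.43. For the genes that were lower in both pools the estimates were 0.47 for *Dbf4* (95% interval -0.33 to 1.27), 0.06 for *Cdc6* (-0.90 to 1.01), -0.13 for *Orc6* (-0.58 to 0.32) and -0.28 for *Pole4* (-0.67 to 0.11). The 6 genes of the MCM ring had estimates above 0, as did 52.4% of all genes tested, with a median of 0.43. The median of the 39 was 0.06, against 0.04 for all genes tested.

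A further 66 genes that act in replication but lie outside the 43 were followed as a list. On polysomes 53 were tested and 5 passed, 1 higher and 4 lower (9.43%, beside 10.4% of all genes), with a median log2 change of -0.11. *Tipin*, a fork protection factor, was read at 129.9, 94.1 and 126 FPKM in WT polysome and 40.8, 32.0 and 42.8 in KO polysome, a log2 change of -1.57 (SE 0.20, limma, adjusted p = 0.00368). *Skp2*, a subunit of a ubiquitin ligase that acts on CDT1, stood at 10.1, 16.4 and 3.96 in WT polysome and was listed at 0 in all 3 KO polysome libraries. It met the minimum for testing through WT alone, so its difference is not independent of the filter and its call is not a result. Without genes of that kind 4 of 45 passed (8.89%), 1 higher and 3 lower, beside 10.9% of all genes. The deoxyuridine triphosphatase *Dut* had a log2 change of -1.21 (SE 0.28, adjusted p = 0.0301), the repressor *E2f4* of -0.97 (SE 0.22, adjusted p = 0.0259) and the kinase *Cdk2* of 0.90 (SE 0.23, adjusted p = 0.0418) in limma, and each of those 3 calls held in only 1 of the 6 fits that leave out a library. Without KO polysome replicate 2, where 2 of the list passed, their adjusted p in limma were 0.0667, 0.103 and 0.0995, and without the intensity trend they were 0.0653, 0.0629 and 0.0793.

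In the RNP pool 55 of the list were tested and 15 passed, 4 higher and 11 lower (27.3%, with 7.27% and 20.0%), beside 20.7% of all genes (10.5% and 10.2%), with a median of -0.28. *Rbl1*, of the E2F and RB family, met the minimum through WT alone, so its difference is not independent of the filter. Without genes of that kind 14 of 48 passed (29.2%), 4 higher and 10 lower, beside 22.6% of all genes. The 10 with the smallest adjusted p were *Rrm2*, a subunit of ribonucleotide reductase, at a log2 change of 1.31, *Top1* at -0.91, *Cdk2* at 1.17, the flap endonuclease *Fen1* at -0.98, *Tipin* at -0.92, *Dctpp1* at 0.77, *Cdc25a* at -0.89, *Tfdp1* at -0.98, *E2f2* at -1.32 and *Donson* at -1.07. The call on *Donson* ended without KO RNP replicate 1 (adjusted p = 0.0619 in limma) or 2 (0.0684), and in the joint fit (0.0555). By role, the lower genes were 5 of 10 (4 of 7 without genes of that kind) of the E2F and RB family, which controls transcription of replication genes, 2 of 3 firing factors, and 1 each of 4 factors of Okazaki fragment maturation, 2 topoisomerases, 6 fork factors and 5 cyclins and CDK. The higher ones were 2 of 9 genes of nucleotide supply, 1 of 3 of RPA and 1 of the 5 cyclins and CDK. None passed of 5 genes of CDT1 turnover, 4 of chromatin assembly and 4 other clamp loaders and partners, and on polysomes 1 of 9 of the E2F and RB family passed. *Rrm2* rose from 26.5, 31.2 and 22.6 FPKM in WT to 66.3, 65.7 and 69.6 in KO, and *Cdk2* from 24.5, 16.6 and 22.0 to 48.7, 51.4 and 44.6. In the ratio none of the 59 tested passed in limma, and 11 (18.6%) had an unadjusted p under 0.05, beside 11.1% of all genes. Between the pools 12 of 55 passed in WT (21.8%, beside 14.7% of all genes), 6 in each direction, and 18 of 53 in KO (34.0%, beside 29.2%), 11 higher and 7 lower on polysomes. Those counts were 4 in WT without WT RNP replicate 2, beside 8.58% of all genes, and 10 in KO without KO RNP replicate 3, beside 21.4%.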

How the data were processed

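Values are FPKM as deposited by the authors, who mapped reads to mm10 with TopHat2 2.0.13 and quantified transcripts with Cufflinks 2.2.1 from libraries amplified by Smart-seq2. FPKM is a share of a library, so differences in RNA content per oocyte are not seen. The authors' table also holds 54 columns of log2 changes, p-values and q-values, which were not used. The sources differ on the densest sucrose layer, 55% in the methods and 50% in the sample descriptions, and on the library kit.

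Each comparison was fitted with limma 3.58.1 (R 4.3.3) with an intensity trend on log2(FPKM + 1), over all genes with at least 1 FPKM in at least 3 libraries compared. P-values were adjusted by Benjamini-Hochberg over all genes tested, and a call is an adjusted p under 0.05. Tables and figures used Python 3.11.15 with pandas 2.3.3, numpy 2.4.6 and matplotlib 3.10.9, and transcripts came from GENCODE M21 on GRCm38. Depth is an estimate, taken from the spacing of the smallest FPKM values in a library. The code was tested on simulated data with known differences.

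The 43 genes and all lists were chosen with earlier results of these data known. Values in every library are given for genes called between genotypes, for the 4 largest pool differences called in each genotype, and for *Cdt1*, *Gmnn*, *Cdc6*, *Mcm2*, *Orc1* and *Pcna*. Of the other replication genes at most 10 called per comparison are named, by adjusted p. *Cdc7*, *Mcm3*, *Mcm10*, *Gins4*, *Orc5*, *Pole*, *Mir300*, *Nif3l1* and *Rbl1* were named after their values were seen. So were *Inha*, *Fshr*, *Inhba* and *Gja1*, and the window of 100 bases was also chosen then.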

Additional observations from a re-analysis of the deposited data

How the results depend on the processing

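The results followed across the settings were counts of calls, and changes of single genes that were called or given in every library. Of these results 597 stayed the same. For a count this means within 1.5 times of its main value, and for a change the same direction and side of the threshold. A further 75 changes kept only their direction, and 28 counts moved by over 1.5 times. The 1 value that reversed was the log2 change of *Orc1* on polysomes, at -0.21 without WT polysome replicate 2 and 0.59 without WT polysome replicate 3. Over all tested genes of the 43, called or not, rescaling the libraries changed the sign of 0 to 2 estimates in a comparison. Settings were other pseudocounts (0.1 and 5), other filters, 2 rescalings, a replicate block, no intensity trend, a joint fit and each library left out.

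On polysomes the joint fit over 12 libraries gave 7 calls among the 43 genes between genotypes. Beside them, 1843 of all 9536 genes tested were called, against 989 in the fit used above. Between the pools of WT the joint fit gave 12 calls among the 43, beside 2302 of all 9574 genes, against 1406 in the fit used above. Dropping the intensity trend gave 2 there, beside 728 of all genes. Among the other replication genes, polysome calls were 3 without a filter, 2 with the block, 2 without the trend and 11 in the joint fit. Between the pools of WT they were 7 without a filter and 5 without the trend. The causes were not tested.

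With each library left out, calls among the 43 genes were 3 throughout on polysomes, 5 to 10 in the RNP pool, 0 in the ratio, 2 to 5 between the pools of WT and 6 to 10 between those of KO. Those among the other replication genes were 2 to 3 on polysomes, 4 to 12 between the pools of WT and 10 to 18 between those of KO. Over all genes, polysome calls were 383 without KO polysome replicate 3, the lowest, 398 without replicate 2, 522 without replicate 1 and 790 without WT polysome replicate 3, the highest. Ratio calls over all genes ran from 0 to 46. In the RNP pool, calls over all genes ran from 1255 to 1911 with a library left out, against 2057 with all 6 libraries. Between the pools of WT they ran from 780 to 1212, against 1406. Between those of KO they ran from 2030 to 2909, against 2881.

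The labels number the libraries but name no pairing. Residuals of libraries with the same number had correlations from -0.02 to 0.03. With that number as a block, 3 of the 43 genes were called on polysomes, beside 7.05% of all genes. In the RNP pool 7 were, beside 18.1%. In the ratio 0 were, beside 0.100%, or 0 of all genes with the block within genotype. The block gave 4 calls between the pools of WT and 8 between those of KO, beside 12.2% and 27.6%. It ended the calls on *Cdc6* on polysomes (adjusted p = 0.101 in limma), *Orc2* (0.0552), *Pole3* (0.0518) and *Pola1* (0.0843) in the RNP pool, where 6 of its 7 calls were among the 9, *Orc2* between the pools of WT (0.0509), and *Dbf4* (0.0603) and *Prim2* (0.0738) between those of KO.

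Each group has 3 libraries of unknown independence. Low values rest on few fragments, so that *Pola1*, *Prim1*, *Pole* and *Mcm8* are poorly measured, and for *Cdc45*, *Pole2*, *Pold1* and *Rfc4* no change was tested. FPKM of *Gins2*, *Pold4* and *Orc2* can hold reads of overlapping genes. mRNA in a pool is not protein, and the RNP and polysome pools are shares of separate libraries.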
